A study of Homo sapiens with 2 samples.

Results

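This account describes 45 genes of MATR3, the hnRNP proteins, the SR proteins and their partners in splice site choice, out of 55773 gene symbols measured in a human cell line. They were chosen by name, from a list drawn up with earlier results of these data known, and all 45 were found among the annotated genes of both libraries. NCI-H2030 is an established lung adenocarcinoma line. Of its cultures, 1 was treated with miR-494-3p AS and 1 with SC. What AS and SC stand for is not spelled out in the labels, so the libraries are called by these letters. There is 1 library in each group and so no replicate error, no test and no p-value: every difference is one between these 2 libraries, and culture, RNA yield and library preparation cannot be told apart from the treatment.

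Pre-mRNA splicing begins when U1 and U2 particles are recruited to the ends of an intron, and the proteins described here decide which ends are used. SR proteins bind exons through RNA recognition motifs and recruit the machinery through serine and arginine rich tails, whereas hnRNP proteins coat nascent RNA and often oppose them. Both families are known to control their own abundance by splicing exons with stop codons into their transcripts, and SRSF1 and PTBP1 are described as abundant in carcinomas of the lung.

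The treatment names a microRNA, so its sequence is given first. A microRNA pairs with target transcripts mainly through bases 2 to 8, its seed, which are in capitals in the mature sequence from RefSeq (chromosome 14, 101029681 to 101029702, plus strand, GRCh38.p14).
hsa-miR-494-3p: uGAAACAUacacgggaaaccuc
The complement of the seed is ATGTTTC. It was searched with TGTTTCA and with ATGTTTCA, the 8-base match that contains both, on the transcript strand of each gene's longest 3′ UTR in GENCODE release 29. Of the 44 genes of the list with such a UTR, 16 held a match (36.4%) and 6 held the 8-base match (13.6%). Among 10559 measured protein coding genes the shares were 27.7% and 6.40%. UTR lengths differed, with a median of 1748 bases over the 44 genes and 1210 bases over all of those coding genes. The match of MATR3 and those of the 8-base kind are shown, because MATR3 had the largest TPM ratio of all measured genes and the 8-base match is the longest one searched. The match is in capitals.
MATR3: ttttagtaggaATGTTTCcactcatgttt
HNRNPA0: ggcagtgggggATGTTTCAaagtggcaagt
HNRNPA3: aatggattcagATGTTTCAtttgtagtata
SYNCRIP, first match: aggtaaaaggtATGTTTCAttagtgcattt
SYNCRIP, second match: caatagcctgtATGTTTCAcattaattggt
SRSF2: tcaattaccaaATGTTTCAtttgaaacaat
TRA2B: taggtattagtATGTTTCAggtactttggg
RBM39: taatgtttttaATGTTTCAgaagcctaact
A match says only that these letters are present. The ratios of these genes are given with their families below.

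The gene of the microRNA, MIR494, was listed at 0 TPM in AS and in SC, and libraries of long RNA do not capture the mature microRNA, which leaves no check of the treatment itself. The deposited TPM is a level per length of transcript, scaled to the library. The main measure here is the log2 ratio of AS over SC after adding 1 TPM to each, a gene counts as measured at a mean of at least 1 TPM, and a log2 ratio of 1 is called 2-fold. Over all 13669 genes that were measured the median was 0.28, and trimmed mean scaling would lower the AS values by 0.35 on the log2 scale before 1 TPM is added. The tables also give the read coverage of each annotated gene and the TPM of loci assembled from the reads, and both were used as further measures of the same genes. Coverage is printed unscaled unless said otherwise, whereas its log2 ratios are of coverage scaled to TPM. The labelled cell type was checked on marker genes. The epithelial keratins KRT8 and KRT18 stood at 345 and 479 TPM in AS, against 486 and 558 TPM in SC. EPCAM, an epithelial adhesion protein, was at 1.84 TPM in AS and 0.604 TPM in SC. The other epithelial markers included KRT19, listed at 0 in both libraries, and CDH1 at 0.0137 TPM in AS and 0.00741 TPM in SC. The 6 lung lineage markers summed to 1.13 TPM in AS and 1.68 TPM in SC, with SFTPA1, SFTPC and SLC34A2 at 0 in both. Of the 3 mesenchymal markers, the filament protein VIM was lower in AS, at 928 TPM in AS and 1118 TPM in SC. The other two were higher in AS, CDH2 at 11.8 TPM in AS and 0.157 TPM in SC and FN1 at 13.2 TPM in AS and 3.49 TPM in SC. The part of these marker differences in the results below was not tested. The 3 matched endothelial markers summed to 0.0511 TPM in AS and 0.149 TPM in SC. The 6 fibroblast markers summed to 25.4 TPM in AS and 32.3 TPM in SC, with COL1A1 at 15.8 TPM in AS and 26.3 TPM in SC. The 5 leukocyte markers summed to 4.28 TPM in AS and 9.02 TPM in SC, nearly all of it CD14.

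Most genes of the list were higher in AS, as were most of all measured genes. In TPM 42 of the 44 measured genes of the list had a log2 ratio above 0, against 9049 of 13669 over all. Of the 44 that were measured, 15 (34.1%) were at least 2-fold higher in TPM, against 16.5% of all measured genes, and 0 were 2-fold lower, against 2.17% of all. Their median log2 ratio was 0.77, which is 0.48 above that of all genes. Relative to the all-gene median 40 of the 44 were above and 4 below, namely HNRNPA2B1, HNRNPUL1, SRSF10 and U2AF2. After trimmed mean scaling 37 were above 0, with HNRNPA0, HNRNPAB and SRSF9 joining those 4 below it. The median of all measured genes was then -0.013. Centring on the median of all genes left 10 genes at least 2-fold higher, where 9.17% of all measured genes were higher and 5.09% lower. Trimmed mean scaling left 8, where 8.75% of all were higher and 5.14% lower. Under both scalings 0 genes of the list were lower. In sum, transcripts of all 45 genes made up 0.499% of annotated TPM in AS and 0.329% in SC. In bulk RNA more cells of a kind and more RNA per cell cannot be told apart.

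**Figure D1:**
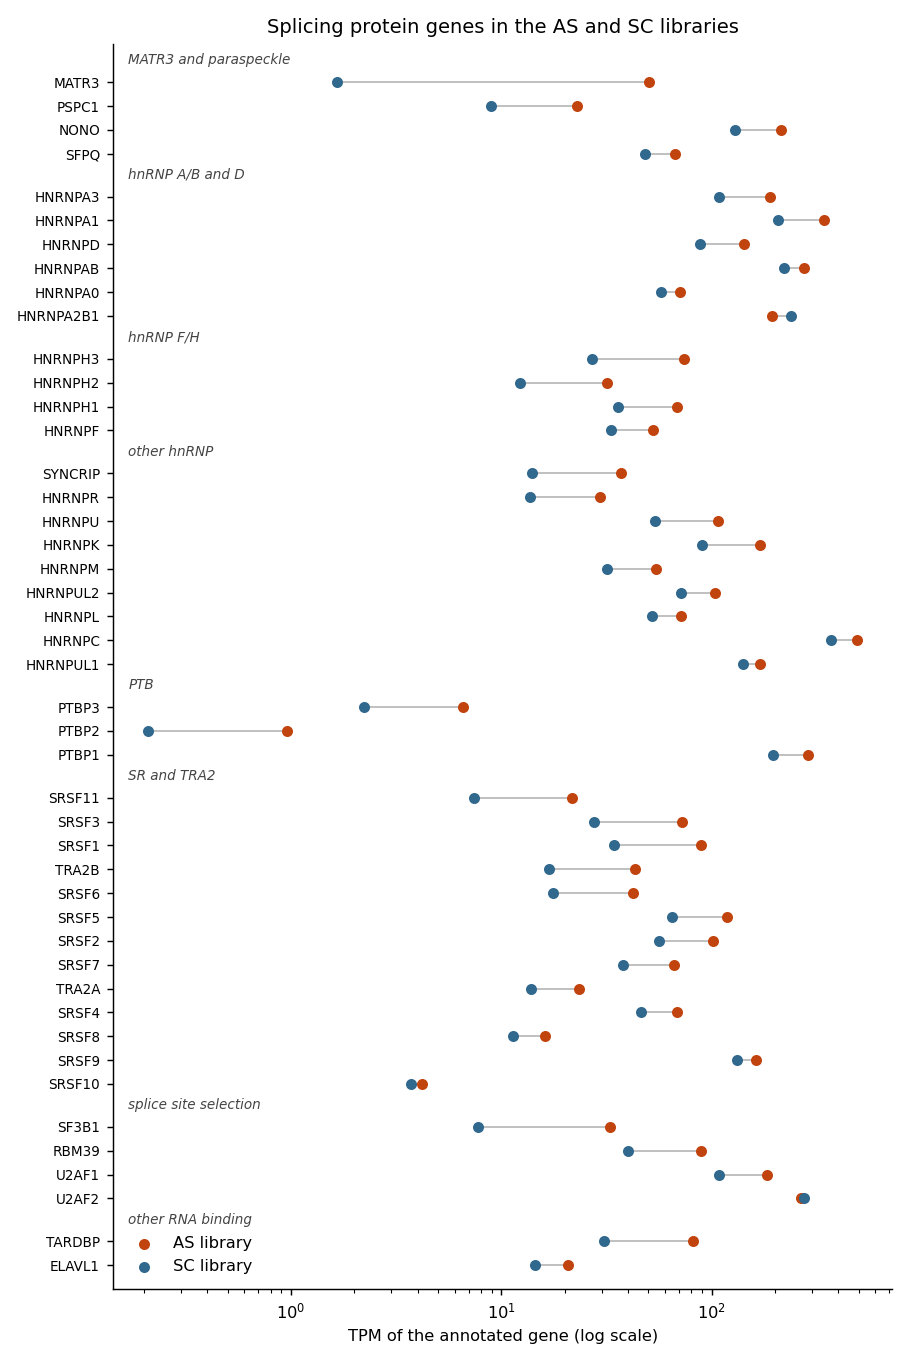
TPM of each of the 45 annotated genes in the AS library (orange) and the SC library (blue) on a log axis, grouped by family and sorted by ratio within each. The AS point lies to the right of the SC point in every row except HNRNPA2B1 and U2AF2, and the longest line is that of MATR3, at 50.4 TPM in AS and 1.65 TPM in SC.

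The 3 measures gave the same number of genes past 2-fold but not the same genes. Coverage also called 15 genes higher (34.1%, against 9.47% of all measured genes) and 0 lower (0.863% of all), and the assembled loci again 15 higher (34.1%, against 16% of the 13272 genes with a locus in both libraries) and 0 lower (2.91%). Of the 44 genes, 11 (25%) were past 2-fold in all 3 measures, against 6.5% of all measured genes. A further 8 passed in at least 1 measure but not in all, so that 19 passed somewhere. The median log2 ratio of the 44 genes was 0.84 in coverage and 0.81 in the loci, where all genes had medians of 0.25 and 0.25. In 4 genes, HNRNPA0, HNRNPH2, PTBP3 and SRSF8, TPM and coverage scaled to TPM lay within 1% of each other in both libraries. In some genes, among them HNRNPH2, HNRNPU, SRSF3 and SRSF6, the TPM of the locus was the same as that of the annotated row. The 3 measures are therefore not independent, and passing in all of them is not 3 separate results. For 9 genes a second measure differed from TPM by at least 0.5 on the log2 scale, and these are described one by one.

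**Figure D2:**
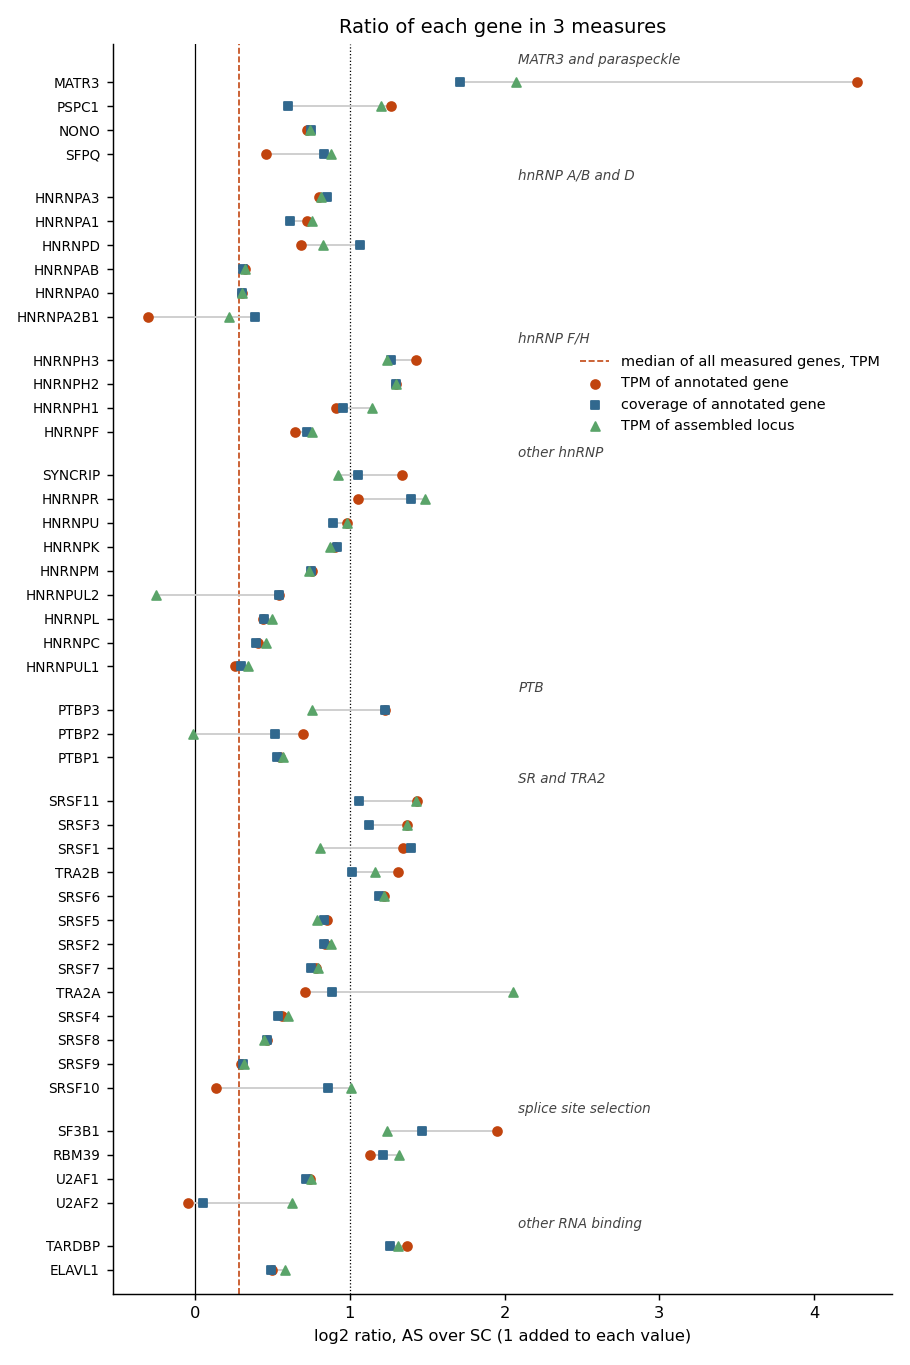
Log2 ratio of AS over SC for each gene in TPM (circles), in coverage (squares) and in the TPM of the assembled locus (triangles), with 1 added to each value on the TPM scale. The dashed line is the median of all measured genes in TPM (0.28), the dotted line marks 2-fold, and grey bars join the measures of a gene. The bar is longest for MATR3, and the symbols lie close together for genes such as HNRNPH2, SRSF6 and NONO. In HNRNPH2 the 3 measures are the same value, and in SRSF6 the locus has the TPM of the annotated row.

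MATR3 encodes matrin 3, a nuclear matrix protein that binds RNA and represses exons (ENSG00000015479, chromosome 5, 138609441 to 138667360, plus strand, GRCh37 coordinates as the tables give them). It stood at 50.4 TPM in AS and 1.65 TPM in SC, a log2 ratio of 4.28 that was the largest of all measured genes. The other measures gave much smaller differences. Its read coverage was 10.6 in AS and 2.29 in SC, a log2 ratio of 1.72 after scaling. In AS the reads were assembled into 1 locus that spanned 98.8% of the gene, at 65.0 TPM. In SC they fell into 4 separate loci, at 2.34, 0.384, 1.85 and 14.7 TPM from the 5′ to the 3′ end.

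The last of these SC loci covered 16.5% of the span, from 48.1 to 57.6 kb after the 5′ end, with a coverage of 24.8 where the AS locus had 11.4 over the whole of its length. Against it the AS locus was 4.43-fold higher, a log2 ratio of 2.08. Against the sum of the 4 SC loci, 19.2 TPM, the log2 ratio was 1.71. The annotated row of SC, at 1.65 TPM, was thus far below the 14.7 TPM that the same library held in its 3′ locus. The 30.5-fold difference in TPM was accordingly 5.11-fold in scaled coverage, and the direction was the same in each measure. SIL1 lies on the opposite strand of the same interval and was at 63.3 TPM in AS and 82.8 TPM in SC; whether counting used the strand is not given in the sources used here.

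**Figure D3:**
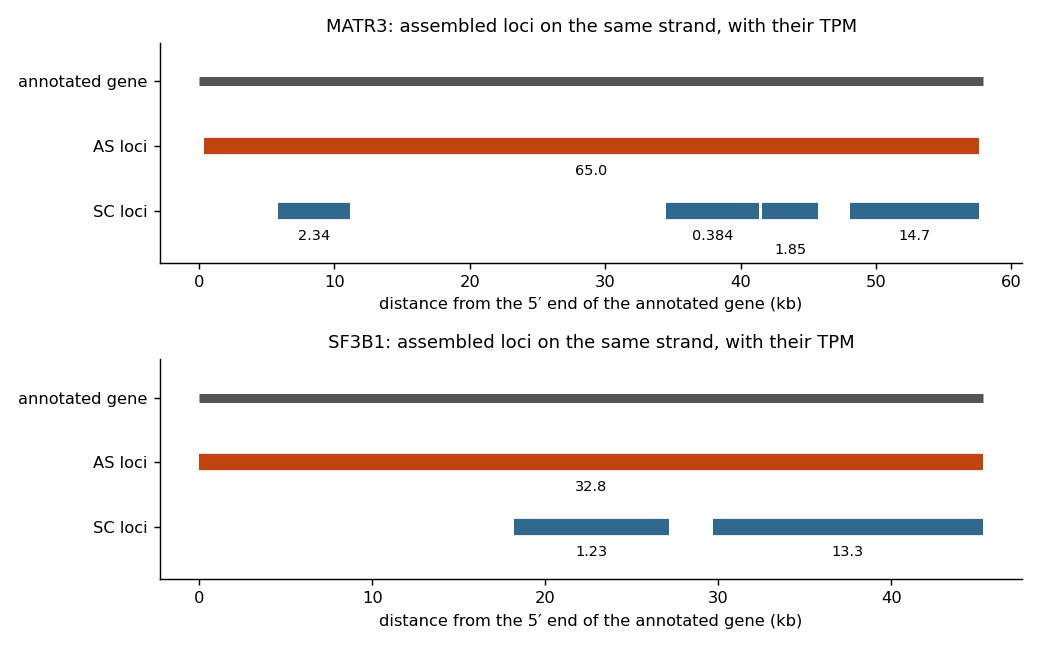
Assembled loci on the strand of MATR3 (top) and SF3B1 (bottom), drawn to scale in kb from the 5′ end of the annotated gene (grey), with AS above SC and the TPM of each locus under its bar. Both genes were assembled as 1 locus in AS and as separate pieces in SC, 4 for MATR3 and 2 for SF3B1, of which the piece at the 3′ end had the highest TPM.

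SFPQ, NONO and PSPC1 are the paraspeckle proteins, which share a structure and pair with each other on the noncoding RNA NEAT1. PSPC1, the least abundant, was at 22.8 TPM in AS and 8.90 TPM in SC, a log2 ratio of 1.27. Its assembled locus was close to that, at 23.7 TPM in AS and 9.74 TPM in SC (1.20). Its coverage was low, at 2.55 in AS and 1.23 in SC. Scaled to TPM the coverage was 1.53 in AS and 0.670 in SC, which gave 0.60 after 1 was added and was 2.29-fold without. NONO was at 214 TPM in AS and 129.5 TPM in SC, with log2 ratios between 0.72 and 0.75 in the 3 measures. The tables also list AL590762.1 on its strand, at 227 TPM in AS and 138 TPM in SC, so the reads of these rows may be shared. SFPQ was at 66.9 TPM in AS and 48.4 TPM in SC (0.46), while coverage and locus gave 0.84 and 0.88. The 3 partners were thus higher in AS under every measure, though by much less than MATR3 in TPM.

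The A/B group of hnRNP proteins, which bind UAG-like motifs and repress exons, was counted together with HNRNPD. This group of 6 genes had the smallest differences, with a median log2 ratio of 0.51. In TPM 0 of the 6 were past 2-fold, against 16.5% of all measured genes. HNRNPA1, the prototype of the family, was at 344 TPM in AS and 207 TPM in SC (0.73). Its 75 annotated pseudogenes summed to 64.0 TPM in AS and 41.9 TPM in SC, so part of its reads may be placed elsewhere. HNRNPA3 was at 190.1 TPM in AS and 109 TPM in SC (0.80), with 16 pseudogenes at 12.3 TPM in AS and 4.32 TPM in SC. HNRNPAB and HNRNPA0 were at 276 and 71.0 TPM in AS, against 221 and 57.2 TPM in SC, log2 ratios of 0.32 and 0.31 that fall below 0 after trimmed mean scaling. HNRNPA0 carries the 8-base match shown above, as does HNRNPA3. The match of HNRNPA0 is at bases 5468 to 5475 of a UTR of 7498 bases. Its annotated gene and its assembled locus spanned 2.96 kb in both libraries, so the match lies beyond the stretch that was measured.

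HNRNPA2B1, which also sorts small RNAs into vesicles, was the 1 gene of this group lower in TPM, at 193 TPM in AS and 238 TPM in SC, a log2 ratio of -0.30. The other measures had the opposite sign. Coverage was 131 in AS and 109.6 in SC (0.39), and the assembled locus stood at 287 TPM in AS and 247 TPM in SC (0.22). Its direction therefore depends on the measure, and in none of them did it reach 2-fold. HNRNPD, also known as AUF1, binds AU-rich elements and promotes decay. It was at 143 TPM in AS and 88.1 TPM in SC (0.69). Its coverage was 90.0 in AS and 46.4 in SC, under 2-fold before scaling. Scaled to TPM the coverage was 54.0 in AS and 25.3 in SC, past 2-fold (1.07).

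The F/H group binds runs of guanine near splice sites and had the largest median of the hnRNP groups, 1.10 in TPM, 1.11 in coverage and 1.19 in the loci. HNRNPH3 was at 74.1 TPM in AS and 26.9 TPM in SC, a log2 ratio of 1.43, with 1.27 in coverage and 1.24 in the locus. HNRNPH2, whose coding region differs little from that of HNRNPH1, was at 31.8 TPM in AS and 12.3 TPM in SC (1.30). Its scaled coverage and its locus had these same values, so the 3 measures are not separate for this gene. A read-through gene of RPL36A and HNRNPH2 overlaps it on the same strand, at 1052 TPM in AS and 783 TPM in SC. HNRNPH1 was at 68.6 TPM in AS and 36.1 TPM in SC (0.91). It was past 2-fold in its locus only (1.14), but that locus spanned 50.9% of the gene in AS and all of it in SC, so the ratio compares unlike stretches. HNRNPF stood lowest of the group in ratio, at 52.6 TPM in AS and 33.2 TPM in SC (0.65).

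Among the other hnRNP genes, 2 of 9 passed 2-fold in TPM (22.2%, against 16.5% of all measured genes), a share near the background. SYNCRIP, also called hnRNP Q, was at 36.9 TPM in AS and 14.0 TPM in SC, a log2 ratio of 1.34, with 1.05 in coverage and 0.93 in its locus. Its UTR held 2 of the 8-base matches, and a further annotated coding gene, RP11-321N4.5, overlaps it at 40.4 TPM in AS and 23.8 TPM in SC. HNRNPR, its close relative, was at 29.5 TPM in AS and 13.7 TPM in SC (1.05), with larger ratios of 1.40 in coverage and 1.49 in the locus. These sister proteins were the pair of this group with the largest TPM ratios.

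HNRNPU, which ties chromatin to nuclear RNA, was at 107 TPM in AS and 53.6 TPM in SC, just under 2-fold (0.98). HNRNPK, a binder of cytidine runs, was at 169.7 TPM in AS and 90.4 TPM in SC (0.90), with 5 pseudogenes at 19.1 TPM in AS and 9.25 TPM in SC. HNRNPM was at 54.3 TPM in AS and 31.8 TPM in SC (0.75). The ratios in the 3 measures lay close together for each of these genes, though the locus of HNRNPU had the TPM of its annotated row. In level the assembled locus of HNRNPM was above its annotated row, at 142 TPM in AS and 85.1 TPM in SC.

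HNRNPC, which binds uridine tracts and was the most abundant gene of the list in both libraries, was at 492 TPM in AS and 370.1 TPM in SC (0.41). Its TPM was 22.5 times its scaled coverage in both libraries, the highest such value of the list, so its level depends strongly on the measure while its ratio does not. HNRNPL, a binder of CA repeats, was at 71.2 TPM in AS and 52.1 TPM in SC (0.44), and the overlapping coding row AC104534.3 was at 184 TPM in AS and 145 TPM in SC. HNRNPUL1 was at 169.6 TPM in AS and 142 TPM in SC (0.26), among the 4 smallest ratios, with 0.30 in coverage and 0.35 in its locus. The read-through coding row HNRNPUL2-BSCL2 overlaps HNRNPUL2 on its strand, at 139 TPM in AS and 128 TPM in SC, so reads of these rows may be shared. HNRNPUL2 itself was at 104 TPM in AS and 71.2 TPM in SC (0.54) and the same in coverage. Its assembled locus also took in BSCL2 and stood at 184 TPM in AS and 219 TPM in SC (-0.25), so that value is not one of HNRNPUL2 alone.

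The PTB proteins bind pyrimidine tracts and repress exons. PTBP1, the form of most dividing cells, was at 287 TPM in AS and 195 TPM in SC, a log2 ratio of 0.55. PTBP3 was at 6.58 TPM in AS and 2.23 TPM in SC (1.23) and only pieces of the gene were assembled in either library. The pieces chosen for its locus ratio (0.76) lay at different places, 80.9 to 109 kb from the 5′ end in AS and 0.025 to 35.8 kb in SC, so that ratio does not compare like with like. PTBP2, the neuronal form, was the 1 gene of the list that did not reach a mean of 1 TPM, at 0.962 TPM in AS and 0.209 TPM in SC. All pieces of PTBP3 together summed to 12.7 TPM in AS and 8.54 TPM in SC (0.53). Most of that was in the piece nearest the 3′ end, at 10.4 TPM in AS and 6.56 TPM in SC. The locus of PTBP1 gave 0.57. PTBP1 was thus by far the most abundant of the PTB genes in both libraries. PTBP3 had the larger ratio in TPM and in coverage but not in the summed loci.

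All 13 SR and TRA2 genes were higher in AS in the 3 measures. Over all measured genes 9049 of 13669 were higher in TPM, 9239 in coverage and 8633 of 13272 in the loci. Of the 13 genes, 5 (38.5%, against 16.5% of all measured genes) passed 2-fold in TPM. Relative to the all-gene median SRSF10 was lower in TPM, and after trimmed mean scaling SRSF9 was too. SRSF11, an SR protein also called p54, was at 21.8 TPM in AS and 7.45 TPM in SC, a log2 ratio of 1.43, with 1.06 in coverage and 1.43 in its locus. SRSF3, the smallest SR protein and an adaptor of mRNA export, was at 72.7 TPM in AS and 27.5 TPM in SC (1.37), with 1.13 in coverage. SRSF6 was at 42.5 TPM in AS and 17.7 TPM in SC (1.22), with 1.19 in coverage and a locus of the same TPM as the annotated row. TRA2B, an activator of exons with GAA motifs that carries an 8-base match, was at 43.2 TPM in AS and 16.8 TPM in SC (1.31), with 1.01 in coverage and 1.16 in the locus.

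SRSF1, the founding SR protein, was at 88.6 TPM in AS and 34.3 TPM in SC, a log2 ratio of 1.35, and coverage gave 1.40. Its assembled locus was longer than the gene, at 141 TPM in AS and 80.3 TPM in SC (0.81). The coding row RP11-159D12.5, which overlaps SRSF1 on its strand, was at 85.1 TPM in AS and 33.5 TPM in SC, nearly the levels of SRSF1 itself. Reads of these rows may be shared.

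SRSF5 and SRSF2 were at 118 and 102 TPM in AS, against 65.2 and 56.3 TPM in SC, log2 ratios of 0.85 and 0.84. SRSF7 was at 66.1 TPM in AS and 38.1 TPM in SC (0.78), and SRSF4 at 68.4 TPM in AS and 46.0 TPM in SC (0.56). SRSF9, the most abundant SR gene, was at 163 TPM in AS and 132 TPM in SC (0.30). SRSF8, which arose from a copy of SRSF2, has 2 overlapping rows that summed to 16.1 TPM in AS and 11.4 TPM in SC (0.46). Its assembled locus was at 6.67 TPM in AS and 4.62 TPM in SC (0.45), so the summed level may count the same reads again. The order of abundance did not follow the order of the ratios: SRSF9 led in level and was next to last in ratio.

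SRSF10, which represses splicing when it loses its phosphates, had the smallest TPM ratio of the SR genes, 0.13, at 4.18 TPM in AS and 3.72 TPM in SC. Its coverage was 6.03 in AS and 2.84 in SC (0.86), and its locus stood at 10.8 TPM in AS and 4.86 TPM in SC (1.01), so here TPM was the measure with the least difference. TRA2A was at 23.4 TPM in AS and 13.9 TPM in SC (0.71), with 0.89 in coverage. In AS its reads formed 1 locus at 38.8 TPM, whereas in SC there were 2 loci at 8.60 and 8.49 TPM. The log2 ratio of 2.05 against the longer of them was 1.14 against their sum.

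Of the genes that mark the 3′ splice site and branch point, SF3B1 differed most. It encodes the subunit of the U2 particle that clamps the branch point (ENSG00000115524, chromosome 2, 198254508 to 198299815, minus strand). It was at 32.8 TPM in AS and 7.73 TPM in SC, a log2 ratio of 1.95, and its coverage was 37.3 in AS and 13.7 in SC (1.46). In AS its reads formed 1 locus over the whole gene at 32.8 TPM. In SC there were 2 loci, 1.23 TPM at 18.2 to 27.2 kb and 13.3 TPM at 29.7 to 45.3 kb from the 5′ end, against which the log2 ratio was 1.24 for the larger and 1.12 for their sum. As with MATR3, the part of the gene next to its 5′ end was not in any SC locus and the ratio was smaller outside the TPM of the annotated row.

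RBM39, a partner of U2AF2 and the protein degraded under aryl sulfonamides, was at 89.3 TPM in AS and 40.2 TPM in SC (1.13), with 1.21 in coverage and 1.32 in its locus. It carries an 8-base match. U2AF1, which reads the AG at the intron end, was at 183 TPM in AS and 109 TPM in SC (0.74). U2AF2, which reads the pyrimidine tract, was at 268 TPM in AS and 276 TPM in SC, a log2 ratio of -0.04, with 0.05 in coverage. Its assembled locus gave 0.63, at 496 TPM in AS and 321 TPM in SC, but the locus also spanned CCDC106 in both libraries and EPN1 in AS. The subunits of the U2AF pair thus had different ratios in TPM and in coverage.

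TARDBP encodes TDP-43, which binds UG repeats and silences cryptic exons. It was at 81.7 TPM in AS and 30.9 TPM in SC, a log2 ratio of 1.37, with 1.26 in coverage and 1.31 in its locus. ELAVL1, which encodes HuR and stabilises transcripts with AU-rich elements, was at 20.8 TPM in AS and 14.5 TPM in SC (0.50). TARDBP was past 2-fold in every measure and ELAVL1 in none.

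The ratios of all genes followed the GC content of their transcripts, and the genes of the list are poor in GC. Of the 43 measured genes with a reference transcript, 33 lay under the coding gene median of 50.8% GC, and their own median was 42.3%. The 21 genes of the list from 35.3% to 42.1% GC had a median log2 ratio of 1.22, with 12 past 2-fold (57.1%), against 42.3% of the 2055 measured coding genes in that range. The 22 from 42.3% to 61.1% had a median of 0.68, with 3 past 2-fold (13.6%), against 13.3% of 6863 coding genes. Each gene was also set against the median of measured coding genes of like GC content, in 10 bins of nearly equal size.

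On that scale 2 genes (4.65%) were at least 2-fold higher, MATR3 (3.38) and SF3B1 (1.06), against 4.71% of measured coding genes, so the share of the list was close to the background. SF3B1 was not past 2-fold in the other measures, at 0.76 in coverage and 0.43 in its locus. Coverage had 1 gene higher, MATR3 (1.01), against 1.11% of coding genes, and the loci had MATR3 (1.26) and TRA2A (1.24), against 5.34%. Both locus values set the only AS locus against 1 of several SC loci. Against the summed SC loci the log2 ratios were 1.71 for MATR3 and 1.14 for TRA2A. The locus median of their bin, 0.81, is still to be subtracted from these, which leaves neither past 2-fold. In TPM 1 gene, HNRNPA2B1 (-1.20), was lower (2.33%, against 3.06%). In coverage it stood at -0.30 and in its locus at -0.61, and 0 genes of the list were 2-fold lower in these measures, against 0.437% of coding genes in coverage and 3.77% in the loci. The median of the 43 genes stayed above that of their bins, by 0.28 in TPM, 0.36 in coverage and 0.34 in the loci. In TPM 33 of 43 lay above the median of their bin, in coverage 38 and in the loci 34; such medians split all coding genes evenly. HNRNPM (0.71), HNRNPH1 (0.65), PTBP1 (0.62) and PSPC1 (0.61) came next after SF3B1 on this scale, and SRSF10 (-0.76) and HNRNPA0 (-0.59) lay next above HNRNPA2B1. The transcript that gave the GC content of HNRNPA0, at 8726 bases, was longer than the gene as measured. The part of GC content in these ratios was not tested beyond this comparison.

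**Figure D4:**
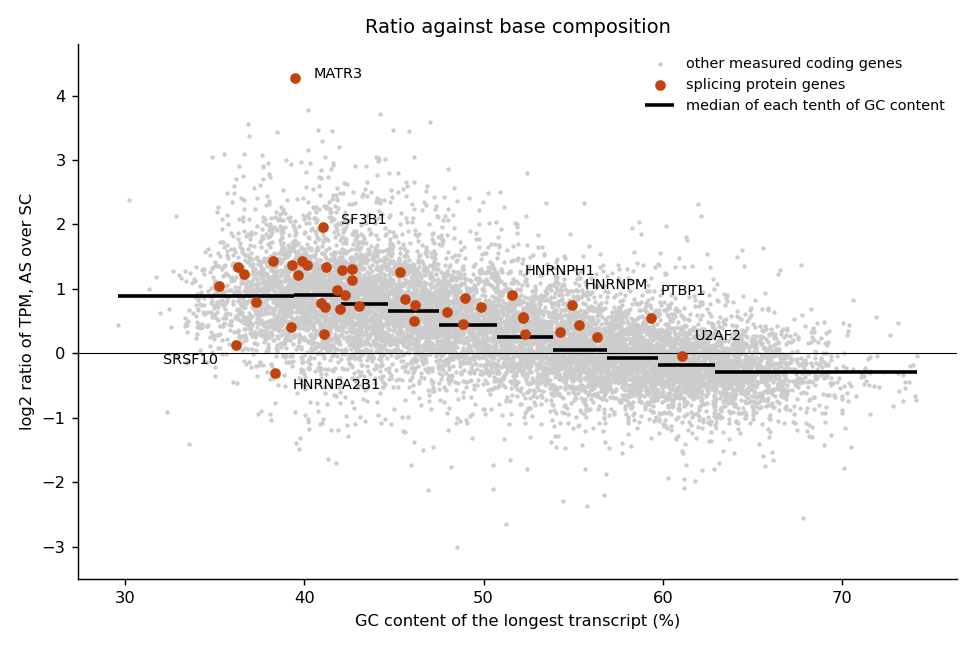
Log2 ratio of TPM, AS over SC, against the GC content of the longest transcript for 10767 measured coding genes (grey) and 43 genes of the list (orange), with black bars for the median of each of 10 GC bins. The medians fall from 0.90 in the lowest bins to -0.29 in the highest, and MATR3 and SF3B1 lie more than 1 unit above their bar.

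The 15 measured genes of the list with a match had a median log2 ratio of 0.84 in TPM and the 28 without one of 0.74, and 7 of those with a match (46.7%) and 8 of those without (28.6%) were past 2-fold. Of all measured coding genes, 27.7% with a match and 13.6% without were past 2-fold. In coverage the medians were 0.86 with a match and 0.73 without. Their GC content also differed, with medians of 40.2% with a match and 45.7% without. Across all measured coding genes the medians were 0.63 with a match and 0.19 without, and the GC medians 44.3% with a match and 53.4% without. The part of GC content and of UTR length in these differences was not tested. Among the genes with an 8-base match, TPM ratios ran from 0.31 (HNRNPA0) to 1.34 (SYNCRIP), and SRSF10, with 4 matches of the 7-base kinds, had 0.13. The match of HNRNPA0 lies beyond the stretch of that gene that was measured.

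Other genes of the splicing pathway were taken from 4 lists. The core spliceosome list of U particle proteins and helicases differed least, with 12 of 67 measured genes at least 2-fold higher in AS (17.9%), close to the 16.5% of all measured genes, 0 lower and a median log2 ratio of 0.41. Relative to GC bins 2 were higher and 1 lower, where 4.71% of measured coding genes were higher and 3.06% lower. DDX46, a helicase of the U2 particle, was at 25.1 TPM in AS and 4.81 TPM in SC (2.17), and PRPF39, a U1 factor, at 11.1 TPM in AS and 1.86 TPM in SC (2.09). CDC5L, of the PRP19 complex, had 1.56. The smallest ratios were those of DHX8 (-0.35), SNRPN (-0.31) and SNRNP25 (-0.25), but the coverage of DHX8 had the opposite sign (0.29). The median GC content of this list, 49.9%, was higher than that of the 43 genes.

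The kinases and phosphatases of SR proteins had 6 of 11 measured genes 2-fold higher (54.5%, against 16.5% of all) and 0 lower. Coverage called 2 of them higher, against 9.47% of all measured genes. On the scale of GC bins 2 were higher, against 4.71% of measured coding genes, and 1 lower, against 3.06%. The TPM ratios had a median of 1.13, against medians of 0.66 in coverage and 0.60 in the loci. PPP1CB, a catalytic subunit of protein phosphatase 1, was at 22.2 TPM in AS and 1.74 TPM in SC (3.08), while its locus was at 22.2 TPM in AS and 10.4 TPM in SC (1.03). PRPF4B, a kinase of the spliceosome, had 1.73 in TPM and 0.37 in its locus, and PPP1R8 had 1.52. At the other end were CLK3, at 49.6 TPM in AS and 87.4 TPM in SC (-0.81), PPP1CA (-0.44) and CLK2 (0.05).

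The SR-related and matrix proteins had 9 of 21 genes 2-fold higher (42.9%, against 16.5% of all) and 0 lower. Relative to GC bins 5 were higher, against 4.71% of measured coding genes, and 1 lower, against 3.06%. The TPM ratios had a median of 0.90, against medians of 0.84 in coverage and 0.71 in the loci. PPIG, a nuclear cyclophilin, was at 15.5 TPM in AS and 1.00 TPM in SC (3.05), RBM25 at 36.9 TPM in AS and 3.74 TPM in SC (3.00), and THRAP3 at 24.4 TPM in AS and 2.48 TPM in SC (2.87). For RBM25 coverage and locus gave 2.03 and 2.02, whereas for THRAP3 they gave 0.53 and 0.67. SRRM2, a scaffold of nuclear speckles, was lower in TPM (-0.49) and higher in coverage (0.60) and in its locus (0.25). SREK1 had a TPM ratio of -0.14 but 0.24 in coverage and 1.22, past 2-fold, in its locus. SCAF1 had 0.04 in TPM, with -0.18 in coverage and -0.17 in its locus.

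The other splicing regulators had 19 of 58 measured genes 2-fold higher (32.8%, against 16.5% of all) and 0 lower. Coverage called 7 higher, against 9.47% of all measured genes. Relative to GC bins 5 were higher, against 4.71% of measured coding genes, and 1 lower, against 3.06%. The TPM ratios had a median of 0.64, against medians of 0.55 in coverage and 0.67 in the loci. U2SURP was at 8.82 TPM in AS and 0.509 TPM in SC (2.70), the helicase DDX3X at 29.9 TPM in AS and 5.78 TPM in SC (2.19), and RBM4B at 17.0 TPM in AS and 3.39 TPM in SC (2.03). PCBP4 (-0.36), EWSR1 (-0.31) and RBM10 (-0.28) had the smallest ratios. The medians of the 4 lists lay between 0.12 and 0.85 above that of all genes, and the 44 genes described above lay within that range at 0.48. In each list the 3 genes with the largest TPM ratios had smaller ones in coverage, except CDC5L, where both were 1.56. They were picked by their TPM ratio, so smaller ratios in another measure can come from that choice alone.

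**Figure D5:**
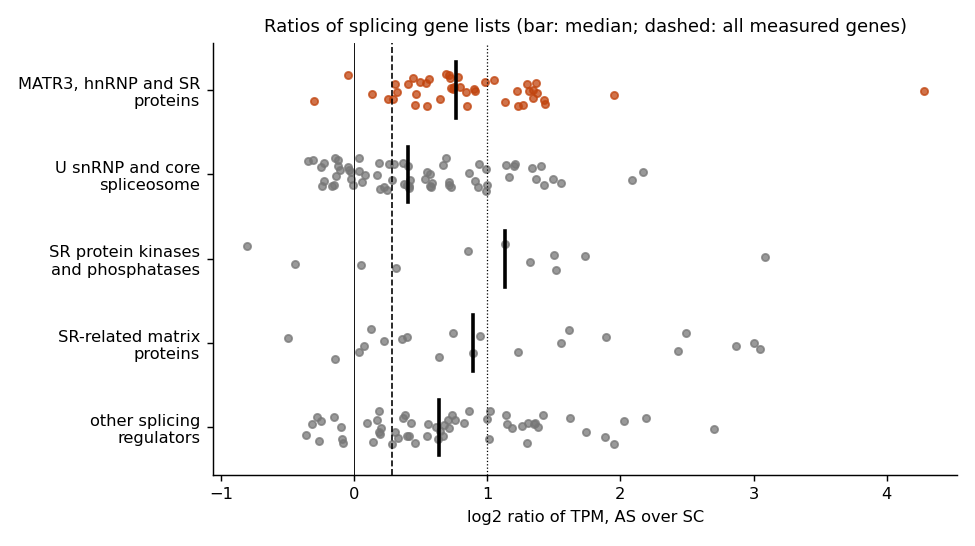
Log2 ratio of TPM, AS over SC, of every measured gene in the list of MATR3, hnRNP and SR genes (orange, 44 genes) and in the 4 further splicing lists (grey). Black bars are list medians, the dashed line is the median of all measured genes (0.28) and the dotted line marks 2-fold; all 5 medians lie to the right of the dashed line, and MATR3 is the point at 4.28.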

How the data were processed

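Total RNA of each culture was made into a strand-marked library, per the labels' protocols. For each library the authors deposited a table in which every annotated gene and every assembled locus has a TPM, an FPKM and a coverage signal, per the file headers. No source used here names the aligner or the program that made the values. The submitters' processing notes name GRCh38 and hg38, whereas gene positions were read as GRCh37: of 44 genes of the list matched by identifier to GENCODE release 29 on GRCh38, 1 had the same start and end. Read counts were not used, so the depth is unknown beyond coverage per FPKM, 3.54 in AS and 3.62 in SC.

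Rows of 1 symbol were summed. Coverage was divided by coverage per FPKM and multiplied by TPM per FPKM (2.13 in AS, 1.98 in SC). The assembled locus of a gene was the one on its strand with the largest overlap. GC content was that of the longest coding transcript. Computations used Python 3.11.15 with pandas 2.3.3 and were tested on simulated libraries. No statistical test was run, with 1 library per group. The genes and lists were chosen with earlier results of these data known. The rule for named genes asked for all 3 measures for the 8 largest and 4 smallest ratios and for genes whose measures differed by 0.5 or more, and for the 3 largest and 3 smallest of each further list. Alternatives were other pseudocounts, filters, measures and scalings.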

Additional observations from a re-analysis of the deposited data

How the results depend on the processing

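Among the genes of the MATR3, hnRNP and SR list, no setting turned the sign of a TPM ratio that was past 2-fold; single genes of the further lists were not followed across settings. The log2 ratio of MATR3, 4.28, was 4.85 with a pseudocount of 0.1 TPM, 3.06 with 5 TPM, 3.75 in FPKM, 1.72 in coverage, 2.08 in the assembled locus and 3.38 relative to its GC bin. The 15 genes of the list that were 2-fold higher became 8 under trimmed mean scaling and 2 relative to GC bins, where 1 was lower instead of 0. The 6 SR kinases and phosphatases became 3 with a pseudocount of 5 TPM, 2 in coverage and 2 relative to GC bins; 1 was lower after centring on the all-gene median, after trimmed mean scaling and relative to GC bins. The median of that list above all genes, 0.85, was 0.35 in the loci. The 19 other regulators became 8 with a pseudocount of 5 TPM, 12 with a filter at 5 TPM, 12 in FPKM, 12 under trimmed mean scaling, 7 in coverage and 5 relative to GC bins; 1 was lower in the loci and 1 relative to GC bins. Relative to GC bins the core spliceosome list had 2 higher and 1 lower, and the SR-related list 5 higher and 1 lower. Over all measured genes 16.5% were 2-fold higher in the main setting. That share was 5.32% with a pseudocount of 5 TPM, 14.1% with a filter at 5 TPM and 9.37% in FPKM. It was 8.75% under trimmed mean scaling, 9.47% in coverage and 4.71% of measured coding genes relative to GC bins. The shares 2-fold lower were 5.09% after centring, 5.14% under trimmed mean scaling, 2.91% in the loci and 3.06% relative to GC bins. The cause of the shifts between settings was not tested.

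No paired analysis was possible because there is 1 library per group and no test. For the same reason the spread between cultures is unknown, read depth is unknown, and no setting tried can show whether a difference would recur.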
